A study of Mus musculus with 2 samples.

Results

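The genes described here are the granins and the main enzymes and inhibitor of prohormone processing, 10 of the 32183 genes counted by single-cell RNA sequencing of celiac and superior mesenteric ganglia of the mouse. They were chosen by name, and all 10 had a row in both count tables: Chga, Chgb, Scg2, Scg3, Scg5, Vgf, Pcsk1, Pcsk2, Pcsk1n and Cpe. The ganglia are the prevertebral sympathetic ganglia of the abdomen, whose noradrenergic neurons supply the gut and other viscera. The 2 deposited libraries form 1 group, and both came from dissociated ganglia of mice 7 to 8 weeks old, with 10x Genomics 3' reagents. In all, 20 animals of both sexes in equal number were used, and the labels state neither strain, genotype or treatment nor which animals entered which library. No label sets the libraries apart, and p-values measure only the spread between these libraries, which may be technical.

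Granins are acidic proteins that fill large dense-core vesicles, the organelles from which neurons and endocrine cells release peptides and, in sympathetic neurons, part of their noradrenaline. Chromogranin A (Chga), chromogranin B (Chgb) and secretogranin II (Scg2) aggregate in the trans-Golgi network and are themselves precursors of peptides. Secretogranin III (Scg3) binds chromogranin A and cholesterol-rich vesicle membrane, Scg5 encodes 7B2, the chaperone and inhibitor of prohormone convertase 2, and Vgf encodes a precursor induced by neurotrophins. Inside the vesicles, prohormone convertase 1/3 (Pcsk1) and prohormone convertase 2 (Pcsk2) cut precursors at paired basic residues, carboxypeptidase E (Cpe) then trims the basic residues left at the ends, and proSAAS (Pcsk1n) inhibits prohormone convertase 1/3. In sympathetic neurons neuropeptide Y is a well-known substrate of this pathway.

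The count tables held 94521010 and 95235439 unique molecular identifiers (UMIs), and 64 barcode sequences occurred in both libraries. After doublet removal 12030 and 11655 barcodes were kept and clustered without the 10 genes. The clusters were named by marker genes, none of them among the 10. Neurons that stood out by Shox2 numbered 61 and 65 (126 in all, median 18028 UMIs), and neurons that stood out by Rxfp1 numbered 74 and 67 (141 in all, median 22278 UMIs); both kinds summed are called neurons below. A further 1219 barcodes, 618 and 601, lay in neuron-like clusters with a median under 5000 UMIs and are called low-UMI neuronal droplets (median 1979 UMIs). None of their clusters had a listed neuronal marker among its 10 leading genes, set against the other neuron-like barcodes. The clusters of 697 and 113 droplets had medians of 1790 and 2024 UMIs, far below those of their own libraries (6483 and 6498 UMIs). Those of 401 and 8 droplets had medians of 2614 and 4225.5 UMIs. All of them are described as droplets and not as a cell type. In the remaining 179 neuron-like barcodes, smaller clusters matched neither kind of neuron. The 12 non-neuronal classes held from 53 barcodes (lymphatic endothelial cells) to 5811 (satellite glia), and their names mean cells like those types by their markers. All 15 neuronal markers had UMIs in both kinds of neuron and in the low-UMI droplets of both libraries. Of the 4 markers of cholinergic neurons, Chat, Slc18a3 and Vip were at 0 in both kinds of neuron in both libraries, and Nos1 had 0 to 7 UMIs. Clustering used a random part of each barcode's UMIs, and all levels below come from the other UMIs unless said otherwise, as CPM, the UMIs of a gene per 1000000 UMIs of the population. Since these 3' counts are not comparable between genes, levels are set side by side only within a gene.

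In neurons, 8 of the 10 genes were higher than in non-neuronal cells and 2, Scg3 and Cpe, were lower. Over all 18133 genes tested in this comparison, 29.3% were higher and 38.2% were lower in neurons (edgeR quasi-likelihood test, adjusted p under 0.05). The median log2 difference was 1.29 over the 10 genes and -0.26 over all genes tested. The convertases differed most: Pcsk2 by 4.43 on the log2 scale (SE 0.16, adjusted p = 3.03e-10) and Pcsk1 by 3.18 (SE 0.14, adjusted p = 1.55e-09). Scg5, the partner of Pcsk2, differed by 1.94 (SE 0.12, adjusted p = 2.46e-08) and Chga by 1.96 (SE 0.17, adjusted p = 7.47e-07). With all neuron-like barcodes, low-UMI droplets included, taken as neurons, Chga, Pcsk1n, Chgb, Scg2 and Vgf differed by 2.69, 2.61, 2.49, 2.33 and 2.20. In a fit over 5 populations the difference of Pcsk2 was 3.28.

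Pcsk2, on chromosome 2 from 143546156 to 143816285 on the plus strand of GRCm38, was at 102 CPM in neurons of both libraries, against 4.14 and 4.10 CPM in non-neuronal cells. Pcsk1 (chromosome 13, 75089826 to 75134861, plus strand) was at 107 and 116 CPM in neurons, against 11.3 and 10.2 CPM in non-neuronal cells. In both convertases the libraries lay close together and the populations far apart. The 2 antisense genes Pcsk2os1 and Pcsk2os2 overlap Pcsk2, and the sources used here do not say whether strand was used in counting. Pcsk1n, the inhibitor of prohormone convertase 1/3 (chromosome X, 7919822 to 7924410, plus strand, overlapped by Eras on the minus strand), was at 883 and 667 CPM in neurons, against 229 and 234 CPM in non-neuronal cells (log2 difference 1.54, SE 0.11, adjusted p = 1.01e-07).

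Among the granins, Chga (chromosome 12, 102554969 to 102565028, plus strand) was at 133 and 68.1 CPM in neurons and at 23.3 and 21.6 CPM in non-neuronal cells. Chgb (chromosome 2, 132781278 to 132795079, plus strand) was at 152 and 90.9 CPM in neurons and at 50.4 and 52.2 CPM in non-neuronal cells (log2 difference 1.05, SE 0.15, adjusted p = 5.21e-05). Scg2 (chromosome 1, 79434669 to 79440120, minus strand) was at 176 and 119 CPM in neurons and at 65.1 and 66.4 CPM in non-neuronal cells (log2 difference 0.97, SE 0.12, adjusted p = 2.02e-05). For each of these granins the neurons of library 1 were higher than those of library 2, and both lay above both non-neuronal values. Scg5 (chromosome 2, 113776362 to 113829121, minus strand) ran the other way between libraries, with 131 and 157 CPM in neurons, against 33.3 and 31.9 CPM in non-neuronal cells. Vgf (chromosome 5, 137026392 to 137033351, plus strand) rested on 49 UMIs in neurons. It was at 26.1 and 9.40 CPM there, against 8.27 and 7.53 CPM in non-neuronal cells. Its call (log2 difference 0.98, SE 0.31, adjusted p = 0.0160) was lost with DESeq2 (log2 difference 0.82, adjusted p = 0.233) and with cells thinned to 1500 UMIs (0.44, adjusted p = 0.655), and by library the log2 difference was 1.66 and 0.32.

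**Figure D1:**
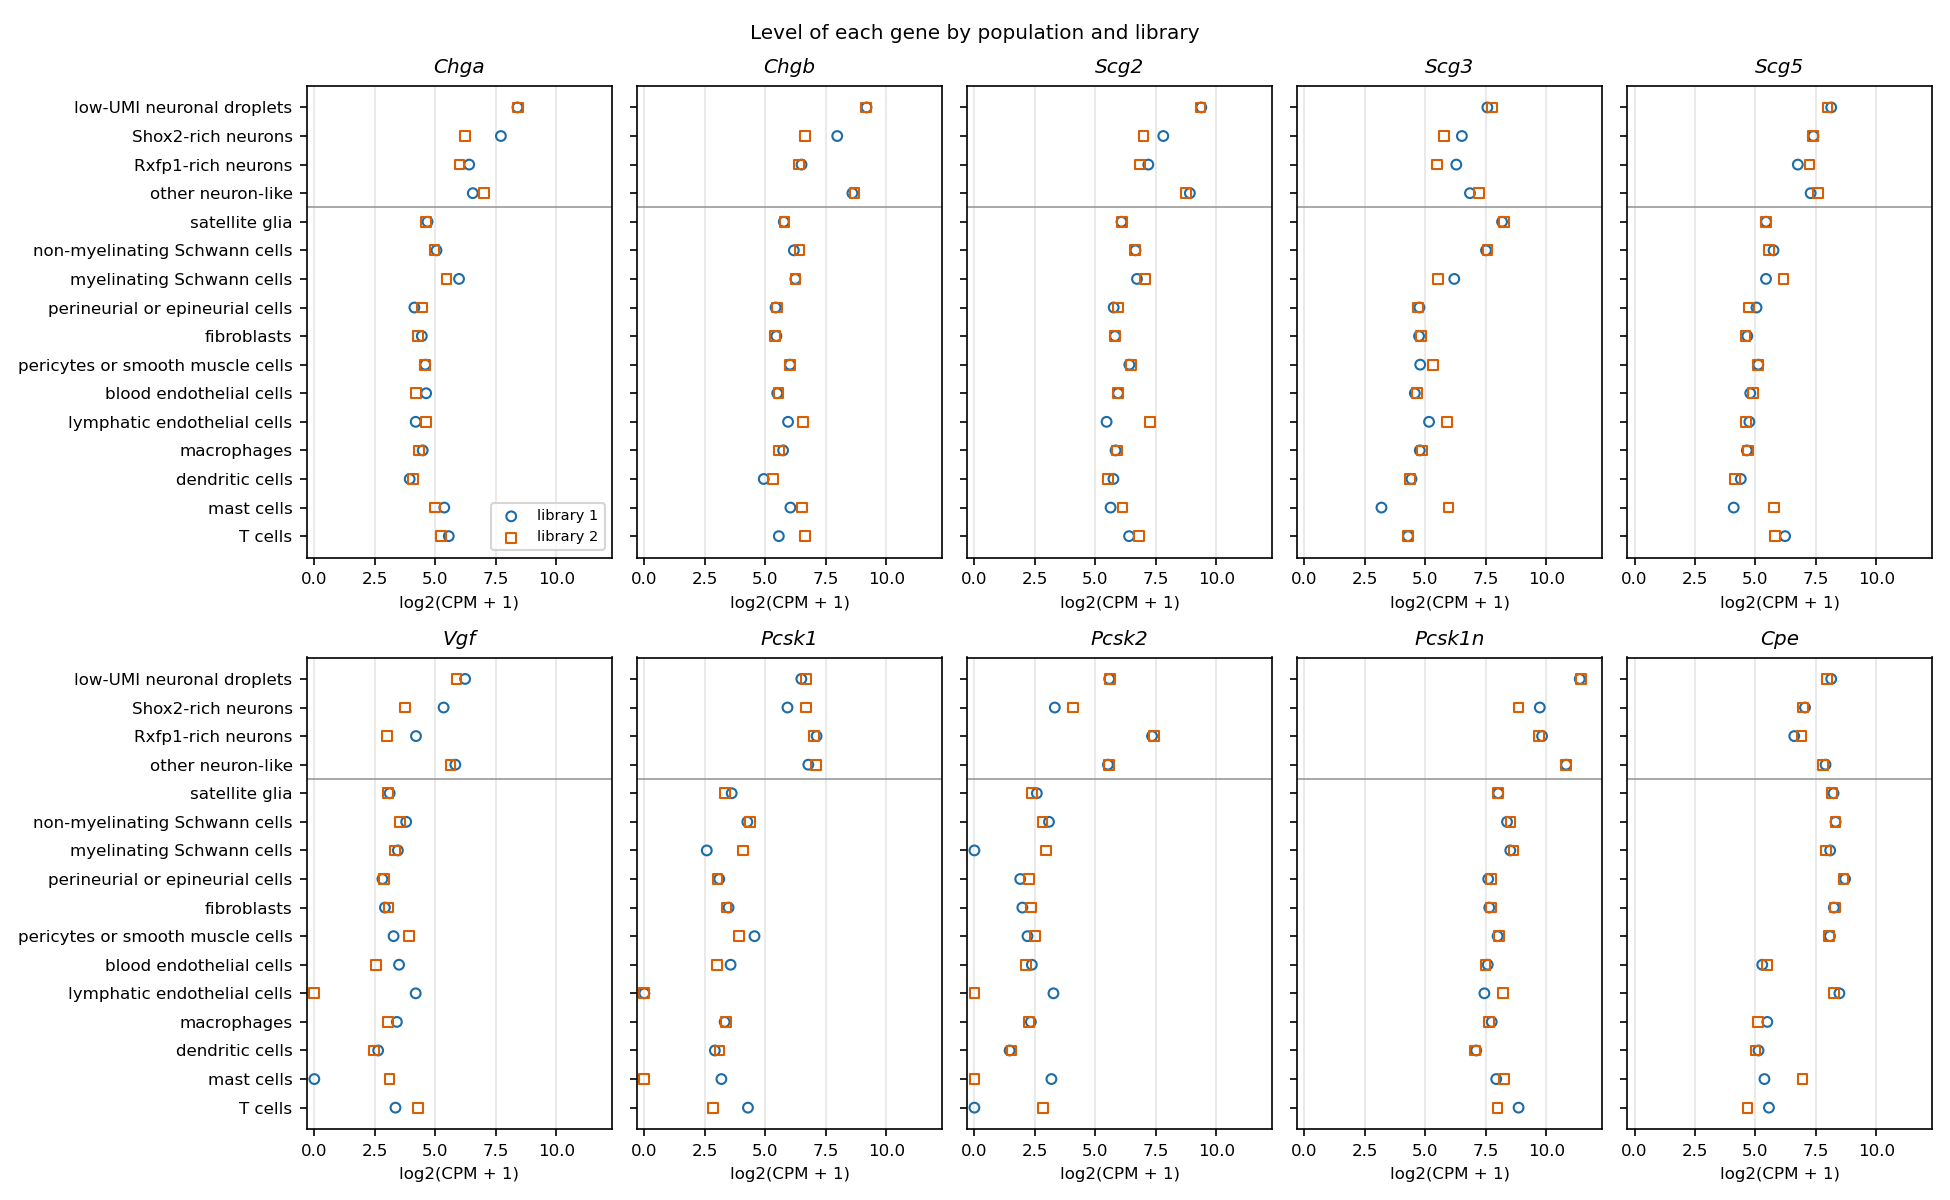
Level of each of the 10 genes as log2(CPM + 1) in every population, with 1 point per library. Low-UMI neuronal droplets are drawn above the neurons and the non-neuronal classes below them, which is not an order of level. Pcsk2 separates Rxfp1-rich neurons (161 and 169 CPM) from all other populations, while Scg3 is highest in satellite glia (287 and 305 CPM) and Cpe in perineurial or epineurial cells (416 and 398 CPM).

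Scg3 and Cpe were highest outside neurons. Scg3 (chromosome 9, 75643189 to 75684056, minus strand, overlapped by Gm37871 on the plus strand) was at 81.9 and 47.8 CPM in neurons, against 109 and 113 CPM in non-neuronal cells, a log2 difference of -0.97 (SE 0.15, adjusted p = 0.000135). With all neuron-like barcodes taken as neurons that difference was -0.06 (adjusted p = 0.457). Cpe (chromosome 8, 64592542 to 64693054, minus strand) was at 110 and 121 CPM in neurons, against 239 and 233 CPM in non-neuronal cells, a log2 difference of -1.23 (SE 0.11, adjusted p = 1.13e-06).

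Among non-neuronal classes Scg3 was highest in satellite glia, the glia that wrap the cell bodies of ganglion neurons. It was at 287 and 305 CPM there, against 48.1 and 50.9 CPM in the other non-neuronal cells (log2 difference 2.61, SE 0.04, adjusted p = 1.30e-68; 34.7% of 17432 genes were higher in satellite glia). Satellite glia fell into 2 clusters, and both held Scg3. Counting every UMI, the cluster of median 9455 UMIs was at 331 and 362 CPM. The cluster of median 4378 UMIs was at 177 and 197 CPM. Non-myelinating Schwann cells, which ensheath thin axons, were next at 181 and 189 CPM. The other 10 classes averaged from 18.4 CPM (T cells) to 58.8 CPM (myelinating Schwann cells). In the order of all 16 populations satellite glia (296 ± 12.9 CPM, SD, n = 2 libraries) stood above low-UMI neuronal droplets (200 ± 17.7 CPM) without overlap, and the droplets overlapped non-myelinating Schwann cells (185 ± 5.92 CPM).

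Cpe was highest in perineurial or epineurial cells, which sheathe nerves and ganglia. It was at 416 and 398 CPM there, against 224 and 221 CPM in the other non-neuronal cells (log2 difference 0.94, SE 0.05, adjusted p = 6.61e-15; 23.4% of 17385 genes were higher in perineurial or epineurial cells). Lymphatic endothelial cells were next (329.7 ± 34.1 CPM, 67 UMIs) and overlapped non-myelinating Schwann cells. Cpe averaged 317 ± 0.54 CPM in non-myelinating Schwann cells, 308 ± 8.64 CPM in fibroblasts and 292 ± 9.58 CPM in satellite glia (SD, n = 2), and 265 and 257 CPM in pericytes or smooth muscle cells and in myelinating Schwann cells. Blood endothelial cells, macrophages, T cells and dendritic cells were lowest, at 40.7 to 32.6 CPM on average, and overlapped one another in that order. Shox2-rich neurons (127 ± 6.03 CPM) and Rxfp1-rich neurons (108 ± 15.9 CPM) lay between these groups.

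The other 8 genes were found at similar numbers of UMIs per droplet in the larger non-neuronal classes. As background, free RNA of broken cells enters every droplet of a suspension and gives all cell types a like low number of UMIs. Over the 9 classes with at least 100 barcodes in each library, Pcsk1n was found at 164 to 181 UMIs per 100 barcodes, Chgb at 35.3 to 44.1, Scg2 at 45.6 to 58.3 and Chga at 14.4 to 22.9. Pcsk2 was found at 2.50 to 3.45 UMIs per 100 barcodes and Pcsk1 at 6.13 to 11.5. Th, Dbh and Npy summed, transcripts of noradrenergic neurons, were at 612 to 741. The highest class over the lowest was 1.10 for Pcsk1n, at most 1.88 (Pcsk1) for the 8 genes and 1.21 for the noradrenergic sum, whereas it was 10.6 for Scg3 and 10.9 for Cpe. Relative to Th, Dbh and Npy in the same class, on the UMIs not used for clustering, the 8 genes had ratios of highest to lowest of 1.26 to 2.62. That ratio was 10.7 for Scg3 and 11.4 for Cpe. Counting every UMI, Pcsk1 was highest in pericytes or smooth muscle cells (86 UMIs in 612 barcodes of library 1 and 55 in 614 of library 2). Chga was highest in myelinating Schwann cells (51 in 188 and 38 in 203). In library 2 both were close to the remaining classes. Scg5 was highest in satellite glia, at 29.5 and 29.3 UMIs per 100 barcodes, against 29.2 in perineurial or epineurial cells of library 1 and 26.6 in myelinating Schwann cells of library 2, the next classes. The part of free RNA in these levels was not tested.

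**Figure D2:**
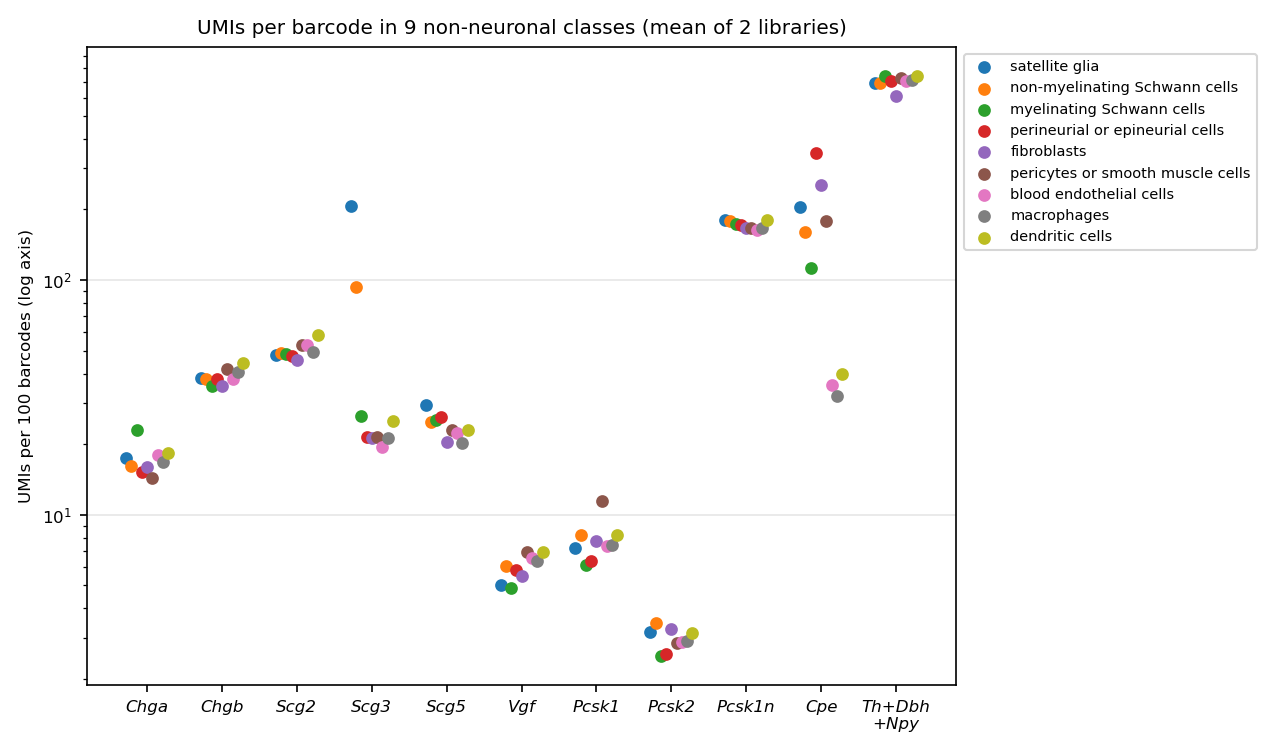
UMIs of each gene per 100 barcodes (log axis, all UMIs) in the 9 non-neuronal classes with at least 100 barcodes in each library. There is 1 point per class (mean of 2 libraries), with Th, Dbh and Npy summed at the right. For Pcsk1n, Chgb, Scg2, Chga, Scg5, Vgf, Pcsk1 and Pcsk2 the points lie in a narrow band, while Scg3 (19.4 to 207 UMIs per 100 barcodes) and Cpe (32.0 to 347) spread far wider.

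Per droplet, neurons and low-UMI neuronal droplets lay above that band for Pcsk1n and Pcsk2. Pcsk1n was at 599 and 659 UMIs per 100 barcodes in low-UMI neuronal droplets, 1561 and 772 in Shox2-rich neurons and 2093 and 1754 in Rxfp1-rich neurons. Pcsk2 was at 8.90 and 10.5 UMIs per 100 barcodes in low-UMI neuronal droplets and 14.8 and 29.2 in Shox2-rich neurons, but at 408 and 370 in Rxfp1-rich neurons. With each barcode thinned to 1500 UMIs, a Pcsk1n UMI was found in 92.4% and 91.7% of low-UMI neuronal droplets, and in 24.5% and 24.1% of dendritic cells, which are not known to express it. Chgb was found in 42.1% and 46.4% of low-UMI neuronal droplets and in 5.63% and 6.16% of dendritic cells. Of the non-neuronal classes, dendritic cells had the highest median (13087 UMIs) and the lowest mean CPM for both genes. For Pcsk1n that was 134 CPM, against 382 CPM in myelinating Schwann cells, the highest class, so the contrast is the widest choice.

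Of the 9 larger classes, myelinating Schwann cells had the highest CPM of the 8 genes on the UMIs used for clustering. On the other UMIs Chga (62.2 and 43.1 CPM, against 22.9 and 21.4 CPM in the other non-neuronal cells), Scg2, Scg5 and Pcsk1n were higher there, by 1.17, 0.80, 0.75 and 0.66 on the log2 scale, and 4 of the 8, Chgb, Vgf, Pcsk1 and Pcsk2, did not pass. In this comparison 8.28% of 17123 genes were higher in myelinating Schwann cells. Their median of 3962 UMIs was the lowest of the 9 larger classes, and their Npy (1218 CPM on average), Th and Dbh were likewise the highest of the 12 non-neuronal classes. The Scg5 call was lost with DESeq2 (log2 difference 0.77, adjusted p = 0.225).

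As shares of all UMIs, 8 of the 10 genes were higher in low-UMI neuronal droplets than in neurons, 1 was lower and 1 did not pass. Over all 10517 genes tested, 35.3% were higher and 37.8% lower. Chgb and Scg2 differed most. Chgb was at 581 and 578 CPM in low-UMI droplets, against 152 and 90.9 CPM in neurons (log2 difference 2.25, SE 0.16, adjusted p = 2.31e-18). Scg2 was at 666 and 649 CPM in low-UMI droplets, against 176 and 119 CPM in neurons (2.15, SE 0.15, adjusted p = 2.89e-18). Chga was at 336 and 344 CPM in low-UMI droplets, against 133 and 68.1 CPM in neurons (1.77, SE 0.17, adjusted p = 9.04e-14). None of these groups overlapped, and the libraries were closer to each other in the droplets than in the neurons. Vgf (74.3 and 57.8 CPM, against 26.1 and 9.40 CPM in neurons) was higher by 1.88, Scg3 (188 and 213 CPM, against 81.9 and 47.8 CPM) by 1.61 and Scg5 (280 and 251 CPM, against 131 and 157 CPM) by 0.87. The inhibitor Pcsk1n was at 2665 and 2772 CPM in low-UMI droplets, against 883 and 667 CPM in neurons (1.80, SE 0.15, adjusted p = 2.74e-15), and Cpe was higher by 1.18. Without the clusters of 697 and 113 droplets described above, Pcsk1n differed from neurons by 2.62 and Chga by 2.54, where Chga had 234 UMIs from a cluster of 8 droplets and 359 from the other cluster, of 401, counting all of them. As a percentage of Th, Dbh and Npy UMIs, averaged over libraries, no member was higher in droplets than in both kinds of neuron. Chga lay between them (Rxfp1-rich 3.36%, droplets 4.04%, Shox2-rich 7.54%), as did Chgb, Scg2 and Vgf. Pcsk1n was lowest in the droplets (droplets 32.3%, Shox2-rich 35.9%, Rxfp1-rich 40.1%). Scg3, Scg5, Cpe and both convertases were lowest there too. Why the CPM and this percentage differ was not tested.

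The convertases did not move with the granins. Pcsk2 was at 46.6 and 47.9 CPM in low-UMI droplets, against 102 CPM in neurons of both libraries, a log2 difference of -1.12 (SE 0.20, adjusted p = 2.41e-06). The neuronal value is the sum of Rxfp1-rich neurons, which hold most Pcsk2, and Shox2-rich neurons, which hold little, and in a fit over 5 populations that averages the log levels of both kinds the difference was 0.052 (adjusted p = 0.876). With cells thinned to 1500 UMIs it was -1.78 (adjusted p = 7.69e-05). Pcsk1 was at 88.8 and 102 CPM in low-UMI droplets, against 107 and 116 CPM in neurons, a log2 difference of -0.25 that did not pass (SE 0.17, adjusted p = 0.195).

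Low-UMI droplets differed from neurons in the length of the genes they held and in nuclear RNA. The median log2 difference was 1.64 over 2098 genes under 10 kb, 0.50 over 3138 genes of 10 to 30 kb, -0.58 over 3322 genes of 30 to 100 kb and -1.66 over 1870 genes over 100 kb. Malat1, an RNA that stays in the nucleus, was at 6895 and 8999 CPM in low-UMI droplets, against 57655 and 61449 CPM in Shox2-rich neurons and 80962 and 78706 CPM in Rxfp1-rich neurons. Scg2 (5.45 kb), Pcsk1n (4.59 kb) and Vgf (6.96 kb) were among the short genes, where the upper quartile of the difference was 2.15. Cpe (100.5 kb, at 1.18), Scg3 (40.9 kb, at 1.61), Scg5 (52.8 kb, at 0.87), Chgb (13.8 kb, at 2.25) and Chga (10.1 kb, at 1.77) were above the upper quartile of their length, which was -0.90 for Cpe, 0.20 for Scg3 and Scg5 and 1.33 for Chgb and Chga. Chga, at 10.06 kb, lay at the short edge of its class, and its difference was below the upper quartile of genes under 10 kb. A cluster of 8 droplets, described below, held 25.3% of the Chga and 23.4% of the Chgb UMIs tested in low-UMI droplets. Pcsk2 (270.1 kb) at -1.12 and Pcsk1 (45.0 kb) at -0.25 lay between the quartiles. The part of length and of nuclear RNA in the members' differences was not tested.

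**Figure D3:**
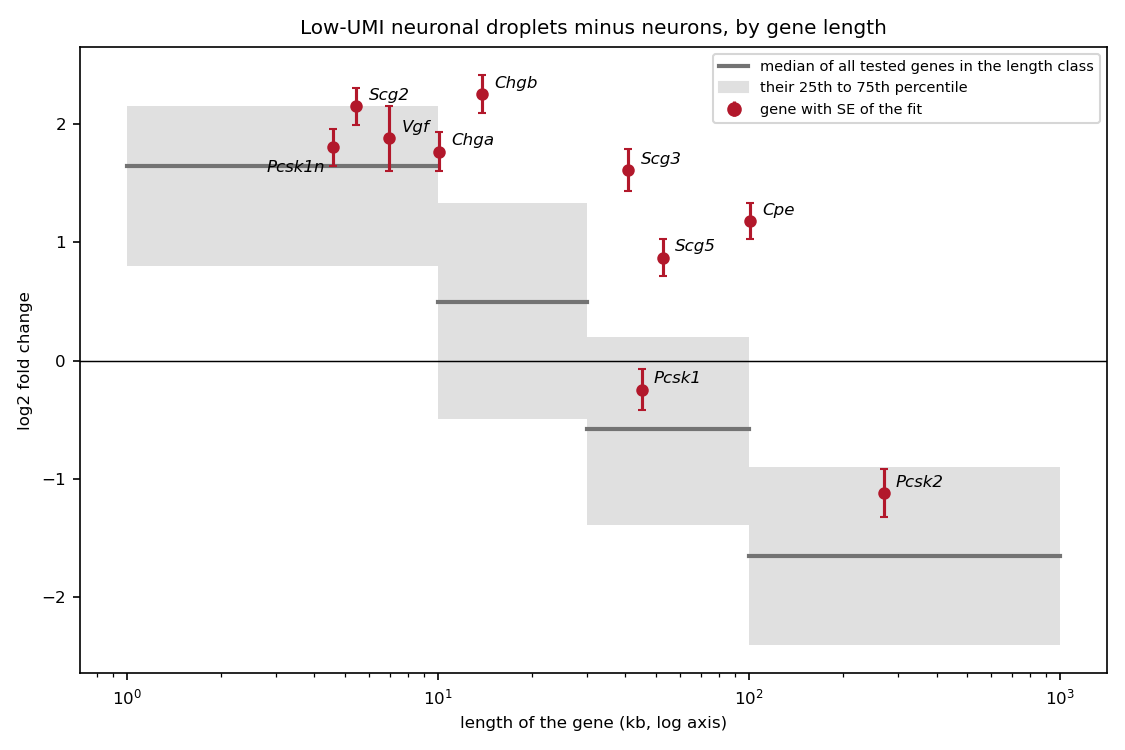
Log2 difference of low-UMI neuronal droplets minus neurons against gene length in kb (log axis), with the 10 genes named over the median and the quartiles of all genes in 4 length classes. The medians fall from 1.64 under 10 kb to -1.66 over 100 kb. Cpe, Scg3, Scg5, Chgb and Chga lie above the upper quartile of their class, and Chga (10.06 kb) lies at the short edge of its class.

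Satellite glia transcripts also made up a larger share of the UMIs in low-UMI droplets than in neurons. The 7 satellite glia markers summed to 5447 and 5692 CPM in low-UMI droplets, against 1099 and 691 CPM in Shox2-rich neurons and 593 and 653 CPM in Rxfp1-rich neurons. This touches Scg3 and Cpe, the genes that satellite glia hold. Against non-neuronal cells, 9 of the 10 genes were higher in low-UMI droplets, where 20.7% of 17330 genes were higher and 27.0% lower. Chga was higher by 3.89 (SE 0.10, adjusted p = 1.47e-07), Pcsk1n by 3.51, Pcsk2 by 3.48 (SE 0.25, adjusted p = 1.46e-05), Pcsk1 by 3.11 and Scg3 by 0.81 (SE 0.10, adjusted p = 0.000223), while Cpe (280 and 250 CPM, against 239 and 233 CPM) differed by 0.13 and did not pass (SE 0.10, adjusted p = 0.351). Without the clusters of 697 and 113 droplets, which had markers of mast cells and of satellite glia among their leading genes, Scg3 differed by 0.17 and no longer passed (adjusted p = 0.527), and Cpe was lower in the droplets (log2 difference -0.63, adjusted p = 0.00117). The other 8 genes were still called higher under that alternative. Set against Th, Dbh and Npy, Scg2, Scg5, Vgf and Pcsk1 of all low-UMI droplets lay inside the range of the 9 larger non-neuronal classes. On that measure Chga, Chgb, Pcsk2 and Pcsk1n lay above the range, and Scg3 and Cpe below it.

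A cluster of 8 droplets inside the low-UMI population held much of its chromogranin. These droplets held 234 Chga UMIs, 24.8% of all Chga UMIs in the low-UMI population, and 360 Chgb UMIs, 22.7% of all, counting every UMI. Of the 8 droplets, 6 held Chga at 11 to 78 UMIs each and 7 held Chgb at 1 to 146. Scg2 had 70 UMIs there and Pcsk1n 69, Pcsk2 had 1 and Pcsk1 had 0. Slc18a1, the vesicular monoamine transporter of chromaffin and small granular cells, was at 542 CPM, from 24 UMIs. It was not particular to the cluster, at 251 CPM in Shox2-rich and 49.1 CPM in Rxfp1-rich neurons over both libraries, counting every UMI. Pnmt, which makes adrenaline, and Penk, the enkephalin precursor, were at 0 in the 8 droplets. Genes leading the cluster were Dlk1, Ndufa4l2, Rgs5, Tmem158, Cox4i2 and Insm1, and with so few droplets and leading genes of different cells it was given no name. Without the cluster, low-UMI droplets were at 270 and 247 CPM for Chga and 422 and 480 CPM for Chgb, and their log2 differences from neurons were 1.37 and 1.88, both still past the threshold.

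**Figure D4:**
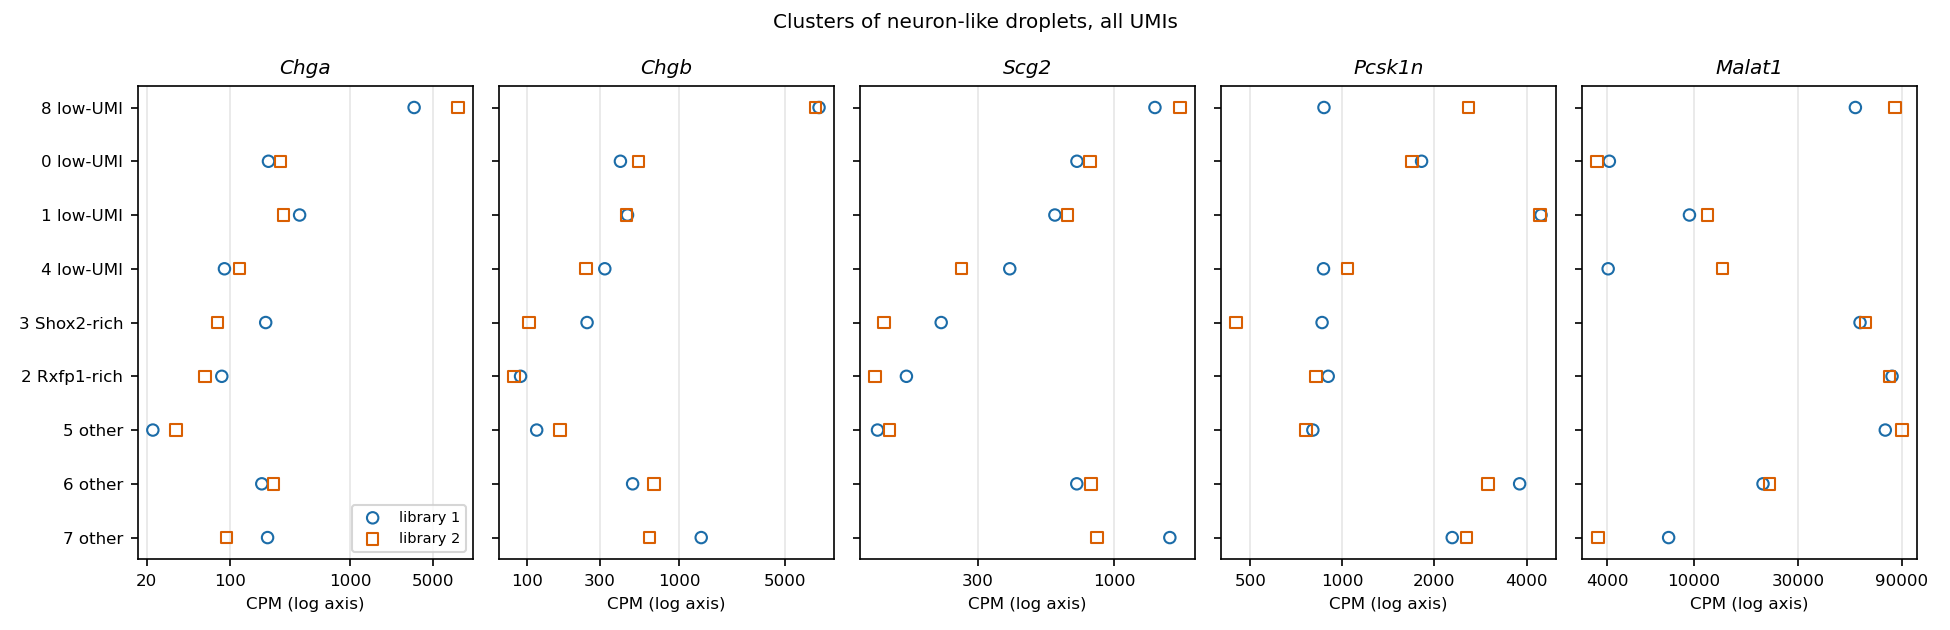
Levels of Chga, Chgb, Scg2, Pcsk1n and Malat1 in CPM (log axis, all UMIs) in each of the 9 neuron-like clusters, with 1 point per library; clusters 5 to 7 are those set aside. The cluster of 8 droplets, in the top row, stands apart for Chga (5288 CPM over both libraries) and Chgb (8135 CPM), and its Malat1 (66573 CPM) is at the level of neurons.

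Motifs were looked up in the promoters of the members, whether or not they were higher in the droplets. RefSeq promoters of GRCm38.p6, from 250 bases before to 50 after the start of the gene, were at hand for 8 of the 10 genes, and Vgf and Cpe were not among them. The palindrome TGACGTCA, the element bound by the cyclic AMP response factor CREB, lay in the promoters of Chgb, Scg2 and Pcsk1, and in 1.79% of all 32851 promoters. Its variant TGACGTAA, searched also as its reverse TTACGTCA, lay in the promoter of Chga and in 0.499% of all. These 4 windows of 30 bases are shown because they hold the element in 3 granins and a convertase. Each is given 5' to 3' on the strand of the gene, with the element in capitals.
Chga: gggcggtcctaTGACGTAAtttcctgggtg
Chgb: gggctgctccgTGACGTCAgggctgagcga
Scg2: ggctgagccggTGACGTCAgcgtggaatgc
Pcsk1: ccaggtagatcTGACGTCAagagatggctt

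These windows lie at chr12:102554886-102554915 (plus strand) for Chga, chr2:132781559-132781588 (plus strand) for Chgb, chr1:79440076-79440105 (minus strand) for Scg2 and chr13:75089768-75089797 (plus strand) for Pcsk1. The start of a gene is RefSeq's here and differs from the GENCODE gene limits given above, inside which the windows of Chgb and Scg2 lie. The element begins 44 bases before the start of Chga, 72 before that of Chgb, 68 before that of Scg2 and 78 before that of Pcsk1. Chga, Chgb and Scg2 were higher in low-UMI droplets than in neurons, and Pcsk1, which holds the element too, did not pass. Scg3, Scg5, Pcsk2 and Pcsk1n held neither form of 8 bases in their promoters, and of these Scg3, Scg5 and Pcsk1n were higher in the droplets too.

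Between the 2 kinds of neuron, only Pcsk2 of the 10 genes passed, and 3.69% of 8544 genes were higher and 4.51% lower in Shox2-rich neurons. Pcsk2 was at 9.0 and 16.0 CPM in Shox2-rich neurons, against 161 and 169 CPM in Rxfp1-rich neurons, which is 14 UMIs against 260. The 95% Poisson intervals, which cover counting error only, were 2.92 to 21.0 and 7.33 to 30.4 CPM in Shox2-rich neurons, against 136 to 190 and 140 to 202 CPM in Rxfp1-rich neurons. The log2 difference was -3.77 (SE 0.28, adjusted p = 4.99e-05), lower in Shox2-rich neurons in both libraries. At full depth, 8.20% and 21.5% of Shox2-rich barcodes held a Pcsk2 UMI, against 78.4% and 82.1% of Rxfp1-rich barcodes. After thinning to 1500 UMIs, 1.64% and 3.08% of Shox2-rich barcodes held one, against 27.0% and 29.9% of Rxfp1-rich barcodes. Dendritic cells, the non-neuronal class with the lowest mean Pcsk2 CPM, were at 0.563% and 0.985%.

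The other convertase and the inhibitor leaned the same way without passing. Pcsk1 was at 59.4 and 102 CPM in Shox2-rich neurons, against 138 and 127 CPM in Rxfp1-rich neurons (log2 difference -0.81, SE 0.24, adjusted p = 0.0857). Pcsk1n was at 848 and 460 CPM in Shox2-rich neurons, against 905 and 830 CPM in Rxfp1-rich neurons (-0.53, SE 0.17, adjusted p = 0.109). The chromogranins leaned the other way, carried by library 1. Chga was at 209 and 74.8 CPM in Shox2-rich neurons, against 83.6 and 62.9 CPM in Rxfp1-rich neurons (0.83, SE 0.26, adjusted p = 0.0935). Chgb was at 250 and 99.8 CPM in Shox2-rich neurons, against 89.4 and 83.9 CPM in Rxfp1-rich neurons (0.90, SE 0.27, adjusted p = 0.0865). In library 1 a single Shox2-rich barcode held 40 of the 116 Chga UMIs and 55 of the 139 Chgb UMIs, and without it these levels were 142 and 157 CPM. Of 9 other settings of the fit, Chga and Pcsk1n passed under 6, Pcsk1 under 7 and Chgb under 8, with all UMIs in place of those not used for clustering among them. Scg2, Scg3, Scg5, Vgf and Cpe differed by 0.18 to 1.01 on the log2 scale and did not pass, and Vgf, at 1.01, rested on 29 UMIs against 20.

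**Figure D5:**
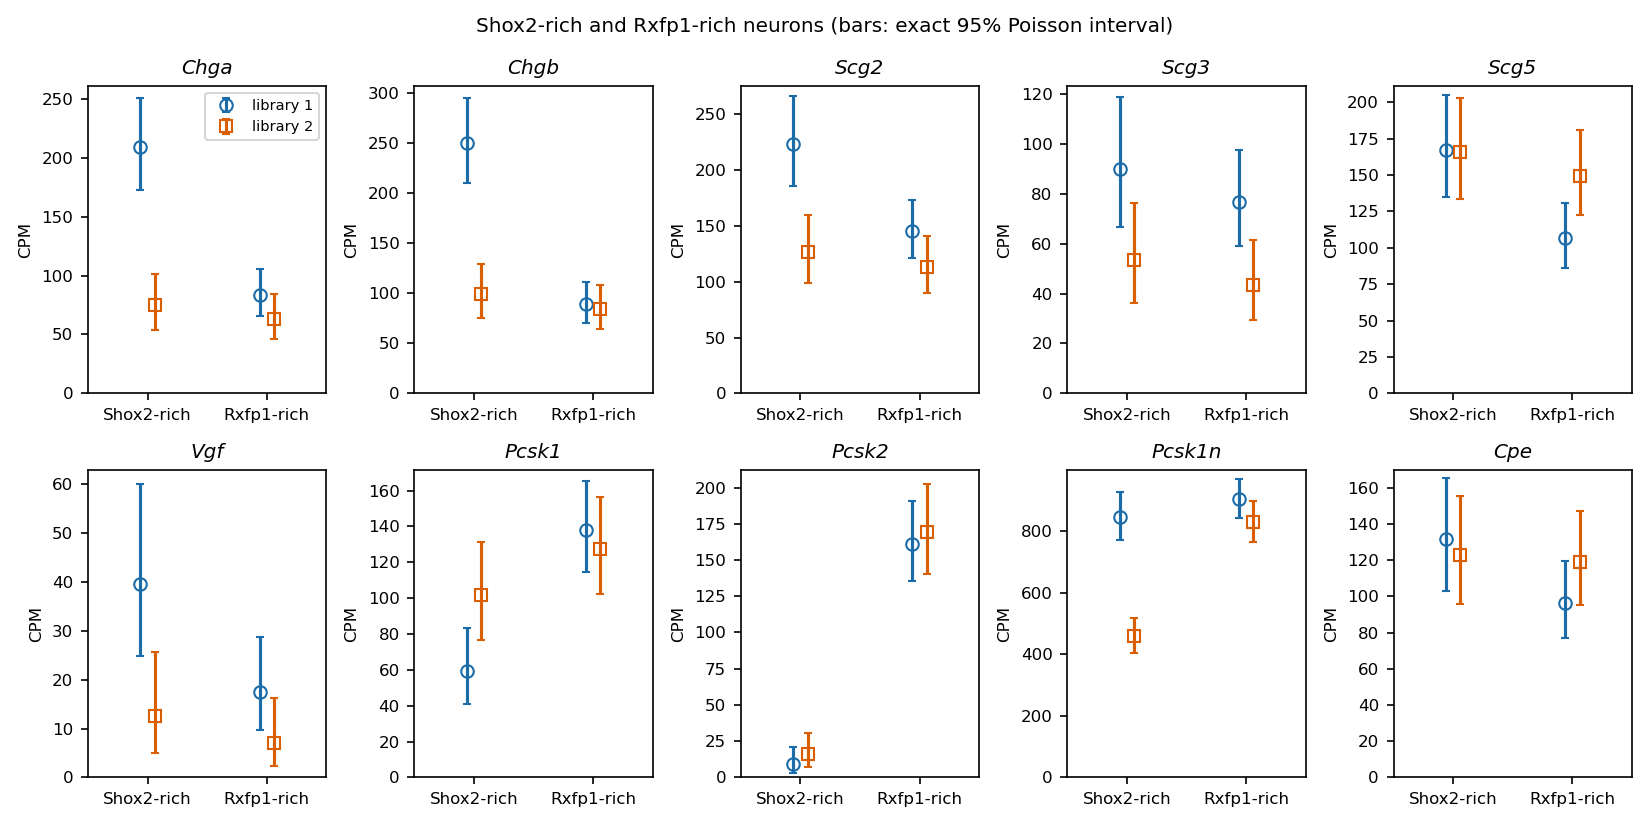
Level of each gene in CPM in Shox2-rich and Rxfp1-rich neurons, with 1 point per library and 95% Poisson intervals. Pcsk2 is at 9.0 and 16.0 CPM in Shox2-rich neurons, below 161 and 169 CPM in Rxfp1-rich neurons, and in the other 9 genes the intervals of both populations overlap in at least 1 library.

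Other genes of the pathway were counted from lists made by role. Of 16 other enzymes of prohormone processing, 2 were higher and 11 lower in neurons than in non-neuronal cells, with a median log2 difference of -1.16 against -0.26 over all genes. Cpxm1 and Cpxm2, carboxypeptidase-like proteins, differed by -5.53 and -4.64 and the convertase Pcsk5 by -4.62, at 2.12 and 3.92 CPM in neurons, against 60.6 and 67.5 CPM in non-neuronal cells. Of 22 tested genes of dense-core vesicle biogenesis and release, 13 were higher and 3 lower in neurons. Ptprn2, a vesicle membrane protein, was at 687 and 783 CPM in neurons, against 4.72 and 5.37 CPM in non-neuronal cells, and Cadps, which primes these vesicles for release, differed by 5.84. Of 19 peptide precursors 8 were tested, and 3 were higher and 4 lower in neurons, with Npy higher by 0.83 and Gal by 1.40.

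In low-UMI droplets against neurons, 9 of 19 tested vesicle genes were higher and 6 lower. Over all genes tested 35.3% were higher and 37.8% lower. Ptprn2, Cadps and Syt9 were lower (log2 differences -3.28, -2.41 and -1.79), whereas Resp18 (160 and 173 CPM, against 34.6 and 36.0 CPM in neurons), Syt10 and Syt4 were higher by 2.22, 2.44 and 1.76. The 4 peptide precursors tested were all higher, Npy by 2.31, Pomc by 2.12, Gal by 2.02 and Adm by 1.09. Of 8 other enzymes tested, 2 were higher and 4 lower, among them Pam, which amidates peptides, at 367 and 454 CPM in low-UMI droplets, against 939 and 909 CPM in neurons (-1.19, SE 0.15, adjusted p = 3.82e-10). Against non-neuronal cells 15 of 22 vesicle genes were higher and 1 lower in low-UMI droplets. Of 16 other enzymes 1 was higher and 8 lower, and of 8 peptide precursors 4 were higher and 1, Penk, lower. Over all genes tested in that comparison 20.7% were higher and 27.0% lower.

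Between the kinds of neuron, Pam went with Pcsk2. It was at 454 and 403 CPM in Shox2-rich neurons, against 1251 and 1307 CPM in Rxfp1-rich neurons (log2 difference -1.65, SE 0.12, adjusted p = 4.43e-05), the only 1 of 7 tested enzymes to pass. Npy was lower in Shox2-rich neurons too (log2 difference -0.89, SE 0.14, adjusted p = 0.00368), at 1109 and 697 CPM, against 1629.5 and 1485 CPM in Rxfp1-rich neurons. Of 18 vesicle genes tested, Rab27b, a GTPase of vesicle docking, was lower (log2 difference -1.75, SE 0.26, adjusted p = 0.00312). Syt7, a calcium sensor, and Cyb561, the cytochrome that passes electrons into vesicles for dopamine beta-hydroxylase and peptide amidation, were higher by 1.12 and 0.74.

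The order of levels over the 16 populations differed among the members. Low-UMI neuronal droplets were highest, without overlap with the next population, for Chga, Chgb, Scg2, Scg5, Vgf and Pcsk1n. Other neuron-like barcodes pool clusters 5 to 7 (all UMIs, both libraries). Clusters 6 and 7 were at 603 and 1206 CPM for Chgb and 774 and 1444 CPM for Scg2. Low-UMI droplets averaged 580 and 657 CPM on the tested UMIs. Cluster 6 but not 7 was higher for Pcsk1n (3335 against 2719 CPM). Cluster 7 but not 6 was higher for Vgf (126 against 66.0 CPM). Chga (210 and 176 against 340 CPM) and Scg5 were not higher in either, and cluster 5 was lower for each of these genes. For Pcsk2 the order was Rxfp1-rich neurons (165 ± 5.53 CPM), low-UMI neuronal droplets (47.3 ± 0.94 CPM) and other neuron-like barcodes (45.5 ± 0.87 CPM). Shox2-rich neurons (12.5 ± 4.97 CPM) and non-myelinating Schwann cells (6.76 ± 1.0 CPM) followed. Each was without overlap with the next (SD, n = 2 libraries). The nearest values of low-UMI droplets and other neuron-like barcodes, 46.6 and 46.1 CPM, rested on 32 and 41 UMIs, so their order was not resolved. Pcsk1 was highest in Rxfp1-rich neurons (133 ± 7.71 CPM), which overlapped other neuron-like barcodes (122 ± 19.4 CPM), and low-UMI droplets overlapped Shox2-rich neurons. The genes whose profiles over 15 populations were most like a member's were neuronal for most of them, and these populations share libraries and free RNA. Scg2 was closest to Sult4a1 and Tubb3 (Pearson r 0.99 and 0.98 over 15 populations), Chgb to Pcmt1 and Scg2 (0.97 each) and Chga to Cplx1 and Th (0.99 and 0.98). Pcsk2 was closest to Rorb and A830018L16Rik (0.99 each), Scg3 to Lrrc4b and Celsr2 (0.94 and 0.92) and Cpe to Dync2li1 (0.93).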

How the data were processed

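The deposited values were raw UMI counts per gene and cell barcode, without normalization. Per the submitters' processing notes the reads were processed with Cell Ranger 6.1.2 on mm10. The annotation, the submitters' cell filters and the use of strand and introns in counting are not given in these sources. No columns were left unused. Gene positions came from GENCODE M21 on GRCm38.

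Barcodes under 1000 UMIs, under 500 genes or over 20% mitochondrial counts were to be removed, which removed 0 and 1 barcodes. Scrublet within scanpy 1.11.5 called 564 (4.48%) and 624 (5.08%) barcodes doublets, which were left out. Each UMI was assigned at random, with probability 0.5, to clustering or to testing. Clustering used 3000 variable genes without the 10 genes described, 30 principal components, 15 neighbours and leidenalg 0.10.2 at resolution 1, with neuron-like clusters divided again at 0.8. A cluster took the name of its best marker list if that score was at least 0.4. The condition that the next list stay under 0.65 of it was set after the data were seen. A cluster of 28 barcodes stayed unnamed.

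The testing counts of each population were added up within a library and tested with edgeR 4.0.16 (filterByExpr, TMM, quasi-likelihood, library as a block, R 4.3.3), with Benjamini-Hochberg adjustment over all genes tested. Each fit rested on 4 sums, which leaves 1 residual degree of freedom, and the spread was largely shared over genes (prior degrees of freedom 6.88 to 75.9). Both populations of a pair came from the same suspension, which is where the pairing comes from. On simulated counts with 200 genes changed 2-fold, 87% were recovered in neurons against non-neuronal cells and 60% in low-UMI droplets against neurons. In low-UMI droplets against non-neuronal cells 49.5% were recovered, and in Shox2-rich against Rxfp1-rich neurons 61.5%. False calls numbered 4, 2, 0 and 1 in that order. Far more genes were called in the data (29.3% higher and 38.2% lower in neurons against non-neuronal cells). The rates therefore hold for the simulated counts only. For each gene, the non-neuronal class with the highest CPM on the clustering UMIs, among the 9 with at least 100 barcodes in each library, was tested on the others. DESeq2 1.42.0 and other settings were tried as alternatives. Intervals (exact Poisson, 95%) cover counting error only.

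All 10 genes are named. Of the other lists, up to 6 genes with the largest called change and the same direction in both libraries were eligible to be named, and of each gene's most similar profiles the first 3 (log2(CPM + 10), Pearson r). The members and lists were chosen with earlier results of these data known.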

Additional observations from a re-analysis of the deposited data

Results flagged for a closer look

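Signal of the 10 genes summed was also found in droplets outside the populations compared, above the limit that a count of 0 allows (1.40 to 8.82 CPM), with no control samples in the series. Neuron-like cluster 5 (101 droplets, median 19689 UMIs) held them at 1620 CPM in all, neuron-like cluster 6 (48 droplets, median 29874 UMIs) at 5864 CPM, and neuron-like cluster 7 (30 droplets, median 8595 UMIs, led by the smooth muscle genes Tagln and Acta2) at 6431 CPM. These 3 clusters entered the alternative with all neuron-like barcodes taken as neurons, and the order of levels. The unnamed cluster of 28 droplets, led by Pcp4, Crabp1 and myeloid genes, held them at 2766 CPM. These values are over both libraries and all UMIs. With 2 libraries, no group was large enough for a test of samples that stand apart.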

How the results depend on the processing

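The genes called over the whole tables numbered 12234 in neurons against non-neuronal cells, 7690 in low-UMI droplets against neurons, 8264 in low-UMI droplets against non-neuronal cells and 700 in Shox2-rich against Rxfp1-rich neurons. With cells thinned to 1500 UMIs neurons against non-neuronal cells gave 5013, low-UMI droplets against neurons 5108 and Shox2-rich against Rxfp1-rich neurons 342, where fewer genes were tested. With DESeq2 low-UMI droplets against neurons gave 4262 and Shox2-rich against Rxfp1-rich neurons 274. Shox2-rich against Rxfp1-rich neurons gave 1061 with no low-count filter, 1536 with all UMIs, 1096 with doublets kept, 1087 at Leiden resolution 1.5 and 1121 with a fit over 5 populations; the cause was not tested. The classes with the highest member levels gave 4292, 8824 and 12577 calls (myelinating Schwann, perineurial or epineurial, satellite glia) and 2479, 4893 and 6940 with DESeq2. With no replicate block, that is without the library as a term, the counts were 12702, 7675, 9066, 869, 4699, 8633 and 11640, and of the members Chgb (0.94) and Pcsk1 (-0.79) passed between Shox2-rich and Rxfp1-rich neurons while no other member's call changed. Among the members, Pcsk2 in low-UMI droplets against neurons turned to 0.052 (adjusted p = 0.876) in the fit over 5 populations, and Cpe in low-UMI droplets against non-neuronal cells to -0.63 (adjusted p = 0.00117) without the low-UMI clusters led by markers of other cells. Over the other settings and members, 5 values fell short of the threshold and 28 passed it, of which 27 concerned Shox2-rich against Rxfp1-rich neurons. A further 572 kept their direction and their side of the threshold or moved by less than the spread between libraries. That last condition always holds where 1 of 2 libraries is left out, so such values were not a test of stability. Leaving out either library left 1 sum per population and no residual degree of freedom, so it gave log2 ratios (1 CPM added) without a test and no counts of genes, and no called member changed sign. The alternative without the 8-droplet cluster was chosen after seeing the data. Depth limits Vgf (49 UMIs in neurons) and Pcsk2 in Shox2-rich neurons (14 UMIs).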
